A study of Mus musculus with 6 samples.

Results

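The genes described here encode the glycolytic chain, the handling of lactate and a part of the response to low oxygen, in immortalized mouse embryo fibroblasts (iMEF) with and without nardilysin (Nrdc), a metallopeptidase that also binds chromatin. The members were chosen by gene symbol as a fixed list of 40 of the 22369 protein-coding genes in the deposited expression table, and all 40 were found. Earlier results of these data were known when the list was made. Counts of members beside the shares of all genes are therefore descriptions, not independent tests. They fall into 11 roles, which run from the glucose transporters through the enzymes of glycolysis to lactate dehydrogenase, the pyruvate dehydrogenase kinases, the lactate transporters, the oxygen sensing genes and the hypoxia-response genes.

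The study asked which genes are transcribed differently when Nrdc is absent and when it is put back. mRNA was sequenced from 3 iMEF lines of C57BL/6 background, with 2 libraries each. Nrdc-/-WT iMEF are Nrdc-/- cells infected with a lentivirus that carries wild-type Nrdc, Nrdc-/- iMEF are the uninfected knockout cells, and Nrdc+/+ iMEF came from wild-type mice. The cells of all 3 lines grew asynchronously in low-glucose medium with fetal bovine serum. Each genotype is represented by 1 immortalized line, so genotype and line cannot be told apart, and no library of Nrdc-/- iMEF with an empty virus was analysed here. The methods call the replicates biological and place them shortly after infection, without saying whether each library had its own culture or infection, so p-values measure the spread between these libraries, part of which may be technical.

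Glycolysis splits glucose into pyruvate in the cytosol. Lactate dehydrogenase then turns pyruvate into lactate, which leaves the cell through monocarboxylate transporters, while the pyruvate dehydrogenase kinases hold pyruvate back from mitochondrial oxidation. Most enzymes of the chain have several isozyme genes with their own tissue distribution. When oxygen is low, the HIF transcription factors escape hydroxylation by the Egln enzymes and degradation, bind short elements around ACGTG or GCGTG in DNA and raise many of the glycolytic genes together with genes such as Vegfa, Bnip3 and Car9. Dividing cells such as fibroblasts in culture also run glycolysis when oxygen is plentiful.

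The promoters of 4 genes are shown, since the lactate dehydrogenase pair and the hypoxia-response genes with the largest fold changes are described in most detail. The windows cover the 250 bases before the gene start in RefSeq on build GRCm38.p6, and letters in capitals mark ACGTG or GCGTG on either strand. Ldha and Ldhb encode the M and H subunits of lactate dehydrogenase, Car9 encodes carbonic anhydrase IX, which sits at the cell surface and hydrates CO2, and Bnip3 encodes a mitochondrial protein that acts in mitophagy. The windows are chr7:46845554-46845803 on the plus strand for Ldha, chr6:142507958-142508207 on the minus strand for Ldhb, chr4:43506776-43507025 on the plus strand for Car9 and chr7:138909507-138909756 on the minus strand for Bnip3.
Ldha: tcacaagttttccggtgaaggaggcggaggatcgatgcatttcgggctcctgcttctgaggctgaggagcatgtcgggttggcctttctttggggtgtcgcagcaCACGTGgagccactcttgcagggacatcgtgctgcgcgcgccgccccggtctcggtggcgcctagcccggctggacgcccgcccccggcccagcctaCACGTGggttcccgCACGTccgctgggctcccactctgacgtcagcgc
Ldhb: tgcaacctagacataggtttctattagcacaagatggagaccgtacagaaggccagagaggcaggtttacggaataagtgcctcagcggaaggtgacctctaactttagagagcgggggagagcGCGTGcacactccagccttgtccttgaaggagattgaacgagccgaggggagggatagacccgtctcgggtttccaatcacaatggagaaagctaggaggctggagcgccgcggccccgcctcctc
Car9: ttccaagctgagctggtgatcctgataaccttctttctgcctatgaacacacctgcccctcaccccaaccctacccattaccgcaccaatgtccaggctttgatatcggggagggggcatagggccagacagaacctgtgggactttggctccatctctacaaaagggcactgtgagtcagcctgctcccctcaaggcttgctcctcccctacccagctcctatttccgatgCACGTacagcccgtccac
Bnip3: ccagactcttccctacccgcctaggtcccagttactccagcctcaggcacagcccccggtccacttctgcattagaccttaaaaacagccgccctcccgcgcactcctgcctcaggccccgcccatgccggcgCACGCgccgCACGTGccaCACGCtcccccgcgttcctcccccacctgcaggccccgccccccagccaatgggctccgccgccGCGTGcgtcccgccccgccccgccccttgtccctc
The Ldha window shown held 5 matches, of which the pairs at -145 and -144 and at -48 and -47 are the 2 strands of the same CACGTG, a palindrome that is also the E-box of other factors. A further Ldha window, from another gene start, held 1 match of the form GCGTG and is not printed. Ldhb had 1 match, of the form GCGTG, at -126. The Car9 match lies 18 bases before the gene start. Bnip3 held 5 matches, again with a CACGTG, at -108 and -107. A window was found for 38 of the 40 genes, with 58 windows in all because some genes have several starts. ACGTG or GCGTG occurred in 45 of these 58 windows (77.6%), and in 12679 of 32851 windows (38.6%) of all genes. The windows of all genes were not matched to the members in expression or base content. Overlapping windows of the same gene, as in Aldoa, can count a match more than once. The match is a description of these letters and not of a bound site.

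Between 16385565 and 19764315 reads fell on the listed genes per library. The values are RPKM, reads scaled by exon length and by the mapped reads of the library, and a difference between lines was called at a Benjamini-Hochberg adjusted p under 0.05 from limma together with a fold of at least 1.3. Nrdc, listed under its older symbol Nrd1, stood at 5.89 and 5.40 RPKM in Nrdc-/-WT iMEF, 1.53 and 1.51 RPKM in Nrdc-/- iMEF and 27.9 and 28.9 RPKM in Nrdc+/+ iMEF. These are RNA values. By immunoblot, the study reported Nrdc protein of Nrdc-/-WT iMEF at a level similar to that of wild-type cells. Of 12 fibroblast markers, 11 were at 1 RPKM or more in every line, with summed levels of 6198 and 6177 RPKM in Nrdc-/-WT iMEF, 5475 and 5433 RPKM in Nrdc-/- iMEF and 4215 and 3781 RPKM in Nrdc+/+ iMEF. The exception was Thy1, at 0 in both Nrdc-/- libraries. Summed markers of epithelial, endothelial, blood, skeletal muscle and adipocyte cells reached no more than 3.81 RPKM in any library. What part the difference in fibroblast markers between lines had in the results was not tested.

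Levels differed widely among the 40 genes. Pkm2, pyruvate kinase, averaged 921 RPKM over the 6 libraries and Adm, adrenomedullin, 0.117 RPKM. The 8 genes at 100 RPKM or more were Aldoa, Tpi1, Gapdh, Pgk1, Pgam1, Eno1, Pkm2 and Ldha, which run from aldolase to lactate dehydrogenase. At the other end, 6 genes averaged under 1 RPKM. Genes averaging 0.5 RPKM or more entered the test, which left 36 of the 40. Slc2a3, Aldoc, Slc16a3 and Adm did not pass and are described by their levels only. Egln3 passed only through Nrdc+/+ iMEF and Car9 only through Nrdc-/- iMEF, as the other lines averaged 0.0163 RPKM for Egln3 and 0.361 RPKM for Car9.

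**Figure D1:**
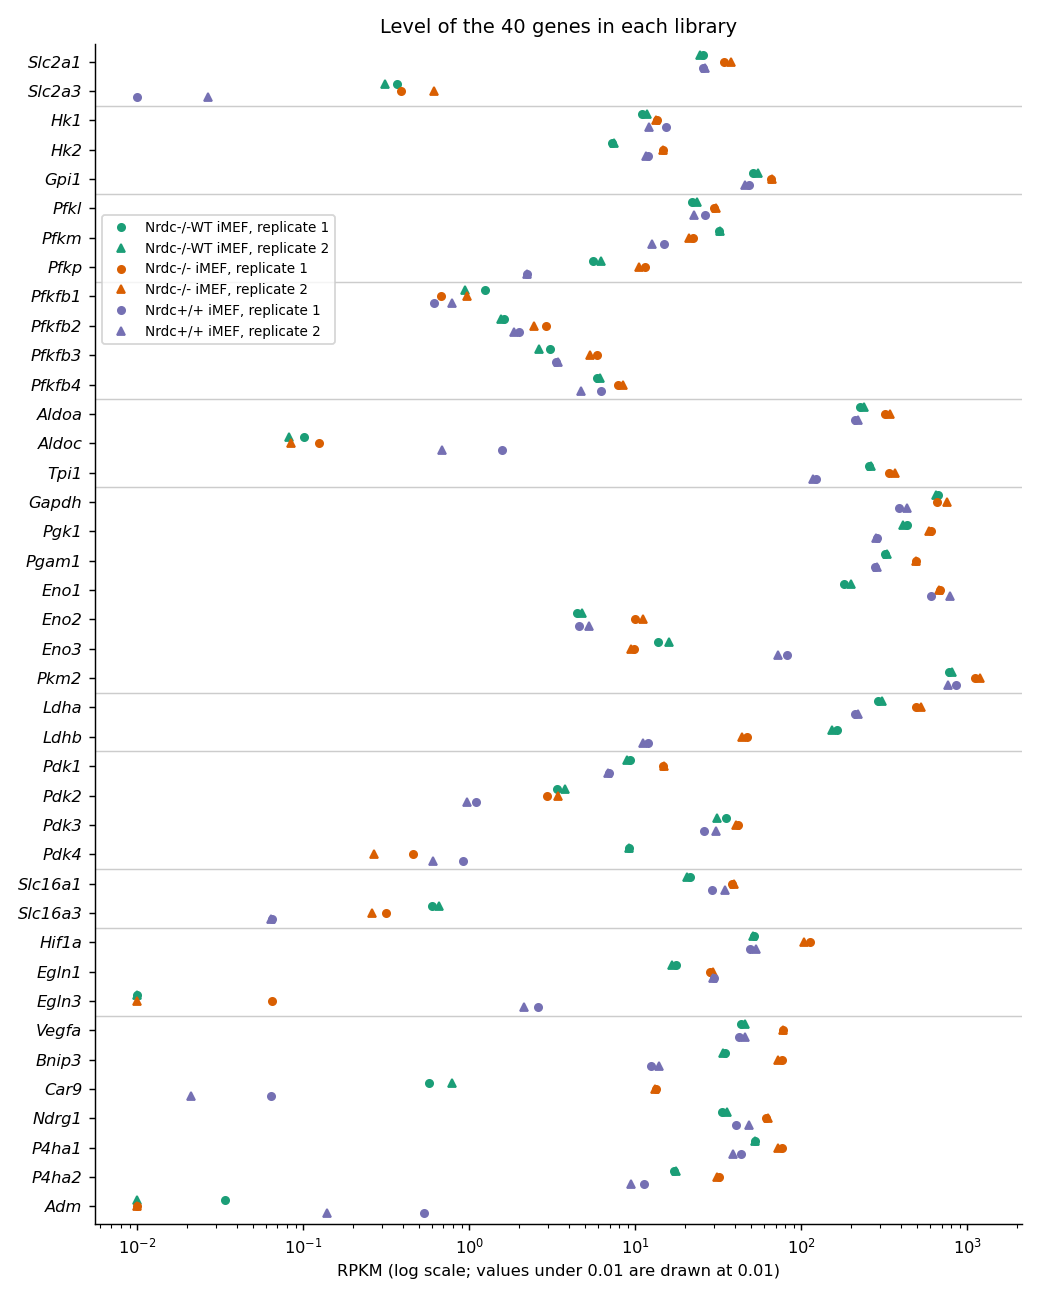
RPKM of the 40 genes (log axis) in each of the 6 libraries, with Nrdc-/-WT iMEF in green, Nrdc-/- iMEF in orange and Nrdc+/+ iMEF in purple, and circles and triangles for replicates 1 and 2; grey lines separate the roles. Most orange points lie to the right of the others, while Ldhb and Pdk4 are highest in Nrdc-/-WT iMEF and Eno3 and Egln3 in Nrdc+/+ iMEF.

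Loss of Nrdc was accompanied by a higher level of most of these genes. Against Nrdc+/+ iMEF, 26 of the 36 tested genes rose in Nrdc-/- iMEF and 3 fell, while over all 11598 tested genes 32.0% rose and 30.2% fell. The median log2 fold change of the 36 genes was 0.63, beside 0.01 over all tested genes. Genes that rose came from every role except the lactate transporters and included Car9, Bnip3, Pfkp, Ldhb, Tpi1 and Ldha. Those that fell were Eno3, the muscle enolase, Pdk4 and Egln3. Summed over the 18 genes from hexokinase to lactate dehydrogenase, the chain stood at 4912 and 5160 RPKM in Nrdc-/- iMEF and at 3172 and 3319 RPKM in Nrdc+/+ iMEF, or 1.49% and 1.56% of reads against 1.00% and 1.09%. Both Nrdc-/- libraries lay above both Nrdc+/+ libraries for 29 of the 36 genes and below them for 4, where over all tested genes 43.6% lay above and 42.8% below. In such bulk libraries, more cells that express a gene and more RNA of it per cell cannot be told apart. The call for Pdk4 was lost without Nrdc-/- replicate 2 or without Nrdc+/+ replicate 1 (log2 fold changes of -0.50 and -0.50). That for Pfkfb2 was lost without Nrdc-/- replicate 1 (0.30) or Nrdc+/+ replicate 2 (0.37), and that for Ndrg1 without Nrdc+/+ replicate 1 (0.37).

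Reintroduction of Nrdc was accompanied by a lower level of most of the genes. In Nrdc-/-WT iMEF, 25 of the 36 tested genes fell against Nrdc-/- iMEF and 4 rose, while over all tested genes 22.7% fell and 20.5% rose. The median log2 fold change of the 36 genes was -0.52, beside -0.02 over all tested genes. The 4 that rose were Pfkm, Eno3, Ldhb and Pdk4. Car9, among those that fell, passed the filter only through Nrdc-/- iMEF, so its direction here was set by the filter. The glycolytic chain summed to 3457 and 3520 RPKM in Nrdc-/-WT iMEF, against 4912 and 5160 RPKM in Nrdc-/- iMEF. The 7 hypoxia-response genes summed to 182 and 187 RPKM in Nrdc-/-WT iMEF, against 338 and 330.4 RPKM in Nrdc-/- iMEF. This comparison and the previous one share the Nrdc-/- libraries, so a value that is high or low in these libraries moves both in opposite directions. At a fold of at least 2, 5 members fell and 2 rose, and over all tested genes 5.44% fell and 6.61% rose. The call for Pfkl was lost without Nrdc-/-WT replicate 1 (-0.35), that for Tpi1 without Nrdc-/- replicate 2 (-0.37) and that for Pfkfb4 without any 1 of the 4 libraries compared (-0.48 to -0.37).

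Nrdc-/-WT and Nrdc+/+ iMEF both express Nrdc, and their direct comparison showed differences in both directions. In Nrdc-/-WT iMEF 14 of the 36 genes were higher and 6 lower than in Nrdc+/+ iMEF, and over all tested genes 29.9% were higher and 30.6% lower. The median log2 fold change of the 36 genes was 0.15, beside -0.02 over all tested genes. Ldhb and Pdk4 were the genes furthest above Nrdc+/+ iMEF and Egln3, Eno3 and Eno1 the furthest below. Egln3 passed the filter only through Nrdc+/+ iMEF, so its direction here was set by the filter. Hypoxia-response genes summed to 182 and 187 RPKM in Nrdc-/-WT iMEF and to 150.5 and 157 RPKM in Nrdc+/+ iMEF. Both Nrdc-/-WT libraries lay above both Nrdc+/+ libraries for 19 of the 36 genes and below them for 11, where over all tested genes 42.2% lay above and 44.2% below. At a fold of at least 2, 8 members were higher and 3 lower, and over all tested genes 13.0% were higher and 10.6% lower. Ranges of the lines overlapped for Pfkl, Pfkfb4, Eno2, Pkm2, Hif1a and Vegfa. Of the 20 calls, that for Pdk1 was lost without Nrdc-/-WT replicate 1 (0.36). That for Pfkfb1 was lost without Nrdc-/-WT replicate 1 (0.34), Nrdc+/+ replicate 1 (0.37) or Nrdc+/+ replicate 2 (0.64, adjusted p = 0.0535).

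**Figure D2:**
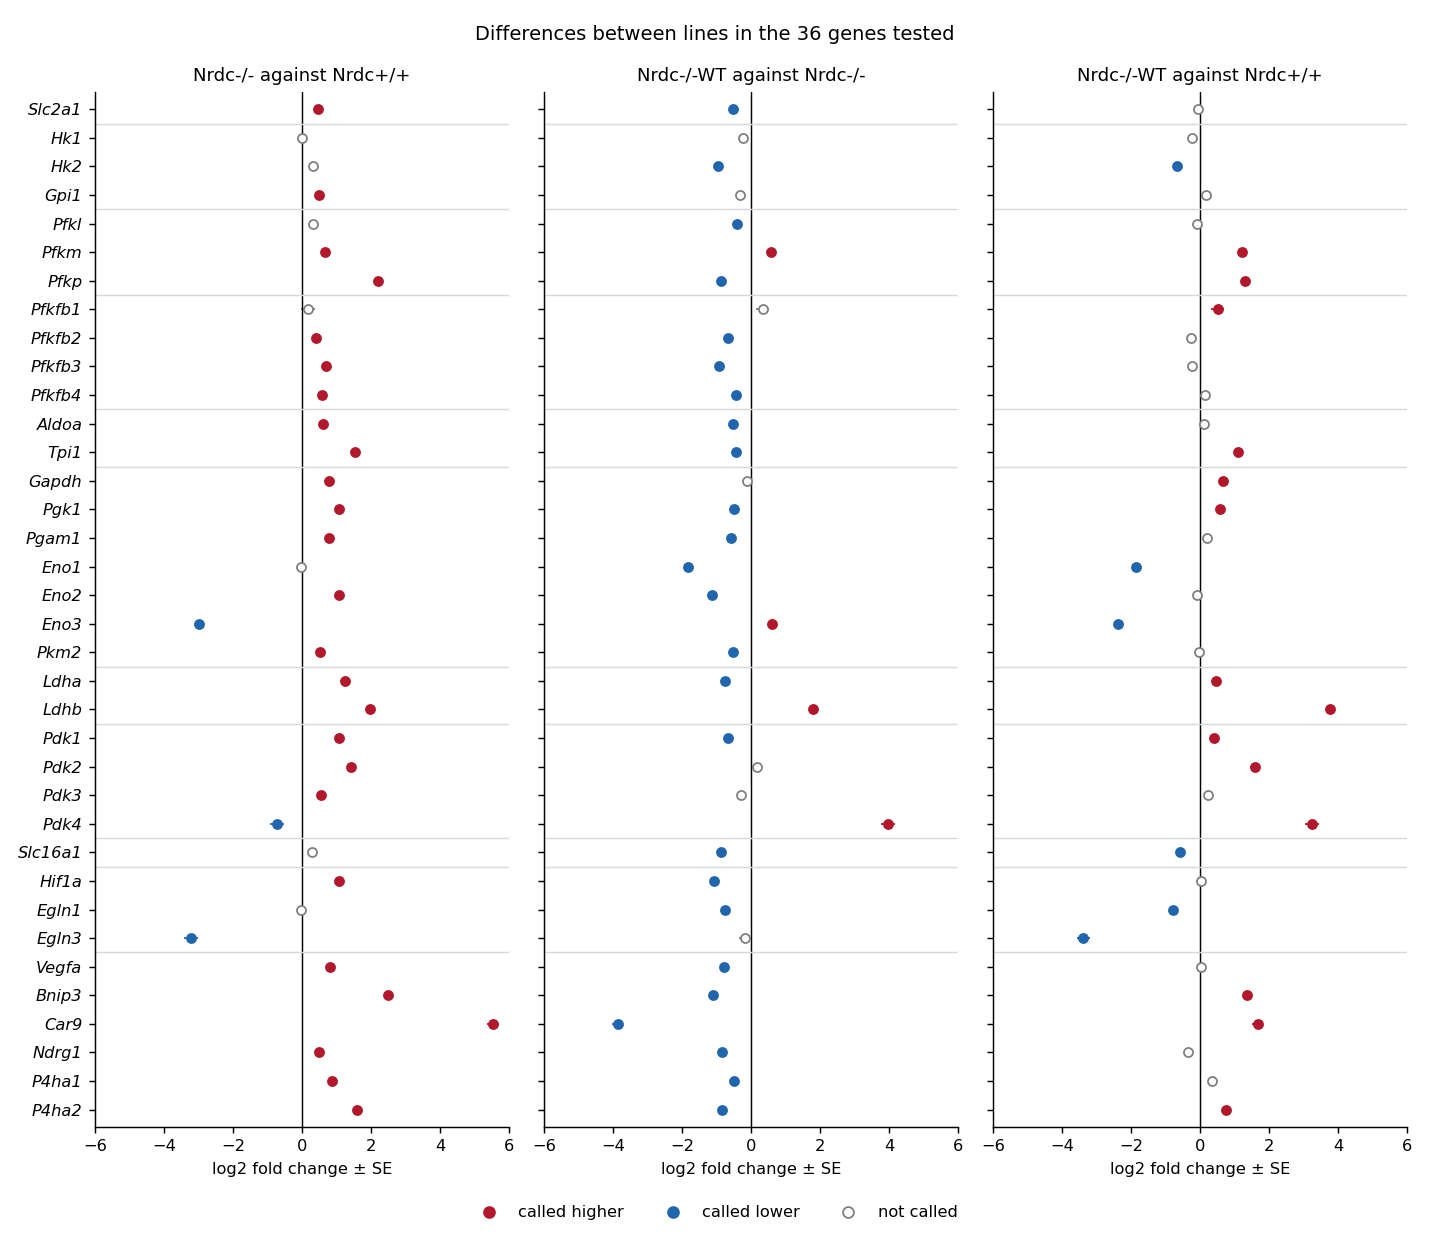
log2 fold change (x axis) of the 36 tested genes in Nrdc-/- against Nrdc+/+, Nrdc-/-WT against Nrdc-/- and Nrdc-/-WT against Nrdc+/+ iMEF, with bars of 1 standard error that are mostly hidden by the points; red and blue points were called higher and lower and open points were not called. The 26 red points of the left panel and the 25 blue points of the middle panel lie mostly within 2 log2 units of 0.

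Glucose enters fibroblasts mainly through Slc2a1 (GLUT1). Slc2a1 stood at 25.4 and 24.7 RPKM in Nrdc-/-WT iMEF, 34.1 and 37.7 RPKM in Nrdc-/- iMEF and 25.6 and 26.3 RPKM in Nrdc+/+ iMEF. The Nrdc-/- libraries were thus the highest, without overlap. Slc2a1 rose in Nrdc-/- against Nrdc+/+ iMEF, with a log2 fold change of 0.46 ± 0.07 (SE, adjusted p = 0.000352), and fell in Nrdc-/-WT against Nrdc-/- iMEF, with -0.51 ± 0.07 (adjusted p = 0.000352). Between Nrdc-/-WT and Nrdc+/+ iMEF the value was -0.05 ± 0.07 (adjusted p = 0.517). Slc2a3 (GLUT3), the high-affinity transporter of neurons, was too low to be tested. Its level was 0.311 to 0.369 RPKM in Nrdc-/-WT iMEF, 0.391 to 0.617 RPKM in Nrdc-/- iMEF and 0.00678 to 0.0267 RPKM in Nrdc+/+ iMEF, where only 5 reads were counted. From the reads, Slc2a3 was 20.3-fold higher in Nrdc-/-WT iMEF (95% interval of 8.42 to 63.9, exact binomial, counting error only) and 30.1-fold higher in Nrdc-/- iMEF (12.6 to 94.2) than in Nrdc+/+ iMEF.

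Hexokinase traps glucose by phosphorylation, with Hk1 as the widely expressed isozyme and Hk2 as the one tied to growth and insulin. Hk2 was 7.27 and 7.48 RPKM in Nrdc-/-WT iMEF, 14.7 and 14.7 RPKM in Nrdc-/- iMEF and 11.9 and 11.7 RPKM in Nrdc+/+ iMEF. Hk2 was thus lowest in Nrdc-/-WT iMEF, with a log2 fold change of -0.97 ± 0.07 against Nrdc-/- iMEF (adjusted p = 1.17e-05) and of -0.66 ± 0.07 against Nrdc+/+ iMEF (adjusted p = 4.80e-05). Between Nrdc-/- and Nrdc+/+ iMEF its value of 0.31 ± 0.07 (adjusted p = 0.00342) was under the fold of 1.3. Hk1 was called in none of the comparisons and ranged from 11.02 to 15.2 RPKM over the 6 libraries. Gpi1, which converts the glucose phosphate into fructose phosphate, was 51.1 and 54.8 RPKM in Nrdc-/-WT iMEF, 65.3 and 66.6 RPKM in Nrdc-/- iMEF and 48.7 and 46.0 RPKM in Nrdc+/+ iMEF. It rose in Nrdc-/- against Nrdc+/+ iMEF by 0.48 ± 0.06 log2 units (adjusted p = 0.000169). The value of -0.32 ± 0.06 in Nrdc-/-WT against Nrdc-/- iMEF was not called, since it was under the fold of 1.3.

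Phosphofructokinase is the committed step of glycolysis, and its liver, muscle and platelet subunits are encoded by Pfkl, Pfkm and Pfkp. Pfkp was 5.53 and 6.21 RPKM in Nrdc-/-WT iMEF, 11.5 and 10.5 RPKM in Nrdc-/- iMEF and 2.22 and 2.23 RPKM in Nrdc+/+ iMEF. Pfkm was 31.9 and 32.6 RPKM in Nrdc-/-WT iMEF, 22.4 and 21.1 RPKM in Nrdc-/- iMEF and 15.0 and 12.7 RPKM in Nrdc+/+ iMEF. Pfkl was 22.1 and 23.6 RPKM in Nrdc-/-WT iMEF, 29.8 and 30.7 RPKM in Nrdc-/- iMEF and 26.2 and 22.7 RPKM in Nrdc+/+ iMEF. The subunit genes therefore had different orders, with Pfkp highest in Nrdc-/- iMEF and Pfkm highest in Nrdc-/-WT iMEF. In Nrdc-/- against Nrdc+/+ iMEF, the log2 fold change was 2.18 ± 0.10 for Pfkp (adjusted p = 2.97e-07) and 0.65 ± 0.09 for Pfkm (adjusted p = 0.000186). With Nrdc put back, Pfkp fell against Nrdc-/- iMEF (-0.88 ± 0.10, adjusted p = 0.000133) and Pfkm rose (0.56 ± 0.09, adjusted p = 0.000751). In Nrdc-/-WT against Nrdc+/+ iMEF both were higher, Pfkp by 1.305 ± 0.10 (adjusted p = 6.89e-06) and Pfkm by 1.21 ± 0.09 (adjusted p = 4.92e-06). Pfkp shares 372 exon bases with Pitrm1 on the opposite strand, and the strand used in counting is not stated. Pitrm1 was 38.0 and 36.4 RPKM in Nrdc-/-WT iMEF, 35.2 and 36.4 RPKM in Nrdc-/- iMEF and 81.5 and 81.4 RPKM in Nrdc+/+ iMEF. What part its reads had in the values of Pfkp was not tested.

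The Pfkfb enzymes make and break the fructose bisphosphate that activates phosphofructokinase. Of the 4 genes, 3 rose in Nrdc-/- against Nrdc+/+ iMEF, beside 32.0% of all tested genes. In Nrdc-/-WT against Nrdc-/- iMEF 3 fell, beside 22.7% of all tested genes. The call for Pfkfb2 in the first comparison was lost under 5 of 18 alternatives, and that for Pfkfb4 in the second under 6 of 18. Pfkfb3, the form with the strongest kinase activity, was 3.06 and 2.62 RPKM in Nrdc-/-WT iMEF, 5.85 and 5.34 RPKM in Nrdc-/- iMEF and 3.35 and 3.41 RPKM in Nrdc+/+ iMEF. Pfkfb4 was 5.88 and 6.13 RPKM in Nrdc-/-WT iMEF, 7.86 and 8.49 RPKM in Nrdc-/- iMEF and 6.20 and 4.71 RPKM in Nrdc+/+ iMEF. Both genes were highest in the Nrdc-/- libraries. In Nrdc-/- against Nrdc+/+ iMEF, the log2 fold change was 0.69 ± 0.11 for Pfkfb3 (adjusted p = 0.000582) and 0.57 ± 0.13 for Pfkfb4 (adjusted p = 0.00356). For Nrdc-/-WT against Nrdc-/- iMEF, it was -0.92 ± 0.11 for Pfkfb3 (adjusted p = 0.000198) and -0.67 ± 0.13 for Pfkfb2 (adjusted p = 0.00224). Pfkfb1 and Pfkfb2 were low, at 0.611 to 2.91 RPKM over all libraries. In Nrdc-/-WT against Nrdc+/+ iMEF only Pfkfb1 of the 4 was called, with 0.51 ± 0.20 (adjusted p = 0.0476), and this call was lost under 8 of 17 alternatives, the replicate block among them (adjusted p = 0.0569).

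Aldolase and triosephosphate isomerase give the triose that enters the lower chain. Aldoa was 225 and 237 RPKM in Nrdc-/-WT iMEF, 319.7 and 340.2 RPKM in Nrdc-/- iMEF and 209.8 and 219.6 RPKM in Nrdc+/+ iMEF. Tpi1 was 256 and 263 RPKM in Nrdc-/-WT iMEF, 336 and 365 RPKM in Nrdc-/- iMEF and 123 and 118 RPKM in Nrdc+/+ iMEF. The Nrdc-/- libraries were the highest for both genes, and Nrdc-/-WT iMEF stayed well above Nrdc+/+ iMEF for Tpi1. In Nrdc-/- against Nrdc+/+ iMEF, Tpi1 rose by 1.54 ± 0.07 log2 units (adjusted p = 2.09e-07) and Aldoa by 0.62 ± 0.07 (adjusted p = 4.91e-05). Aldoa in Nrdc-/-WT against Nrdc-/- iMEF changed by -0.51 ± 0.07 (adjusted p = 0.000287) and Tpi1 by -0.43 ± 0.07 (adjusted p = 0.000702). In Nrdc-/-WT against Nrdc+/+ iMEF, Tpi1 was higher by 1.10 ± 0.07 (adjusted p = 1.65e-06), while the value for Aldoa was 0.11 ± 0.07 (adjusted p = 0.18). Aldoc, the brain aldolase, was not tested, at 0.0821 to 0.101 RPKM in Nrdc-/-WT iMEF, 0.0845 to 0.124 RPKM in Nrdc-/- iMEF and 0.683 to 1.57 RPKM in Nrdc+/+ iMEF.

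The lower chain recovers ATP and ends in pyruvate. Gapdh, the dehydrogenase that makes NADH, was 662 and 650.2 RPKM in Nrdc-/-WT iMEF, 661 and 759 RPKM in Nrdc-/- iMEF and 391 and 435 RPKM in Nrdc+/+ iMEF. Pgk1, phosphoglycerate kinase, was 432 and 408 RPKM in Nrdc-/-WT iMEF, 601 and 588 RPKM in Nrdc-/- iMEF and 286 and 282 RPKM in Nrdc+/+ iMEF. Pgam1, phosphoglycerate mutase, was 318 and 330.2 RPKM in Nrdc-/-WT iMEF, 488 and 488 RPKM in Nrdc-/- iMEF and 278 and 288 RPKM in Nrdc+/+ iMEF. All 3 genes were lowest in Nrdc+/+ iMEF, and Gapdh did not separate Nrdc-/-WT from Nrdc-/- iMEF. Gapdh mRNA served the study's RT-PCR as the standard, and in these libraries its mean was 1.72-fold higher in Nrdc-/- than in Nrdc+/+ iMEF. Pkm2 was 782 and 815 RPKM in Nrdc-/-WT iMEF, 1110.4 and 1198 RPKM in Nrdc-/- iMEF and 849.9 and 770.1 RPKM in Nrdc+/+ iMEF. The Nrdc-/- libraries were again the highest, and the other lines overlapped. The largest changes of the role other than those of the enolases included a rise of Pgk1 in Nrdc-/- against Nrdc+/+ iMEF, with a log2 fold change of 1.06 ± 0.06 (adjusted p = 1.69e-06).

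Enolase showed a different pattern for each isozyme gene. Eno1, the common form (chr4:149610830-149622988 on mm9), was 181 and 199 RPKM in Nrdc-/-WT iMEF, 683 and 672 RPKM in Nrdc-/- iMEF and 605 and 788 RPKM in Nrdc+/+ iMEF. Eno3, the muscle form (chr11:70470704-70476015), was 13.7 and 15.9 RPKM in Nrdc-/-WT iMEF, 9.79 and 9.47 RPKM in Nrdc-/- iMEF and 82.3 and 72.8 RPKM in Nrdc+/+ iMEF. Eno2, the neuronal form, was 4.47 and 4.80 RPKM in Nrdc-/-WT iMEF, 9.94 and 11.1 RPKM in Nrdc-/- iMEF and 4.58 and 5.29 RPKM in Nrdc+/+ iMEF. Eno1 was thus low only in Nrdc-/-WT iMEF, Eno3 was high only in Nrdc+/+ iMEF and Eno2 was high only in Nrdc-/- iMEF, among these 3 lines. Eno1 fell by 1.84 ± 0.12 log2 units in Nrdc-/-WT against Nrdc-/- iMEF (adjusted p = 7.00e-06) and by 1.86 ± 0.12 against Nrdc+/+ iMEF (adjusted p = 2.53e-06). Its value in Nrdc-/- against Nrdc+/+ iMEF was -0.03 ± 0.12 (adjusted p = 0.841). Eno3 fell by 2.97 ± 0.09 in Nrdc-/- against Nrdc+/+ iMEF (adjusted p = 3.25e-08) and by 2.37 ± 0.09 in Nrdc-/-WT against Nrdc+/+ iMEF (adjusted p = 1.54e-07). Eno2 fell by 1.14 ± 0.10 in Nrdc-/-WT against Nrdc-/- iMEF (adjusted p = 4.59e-05).

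Reads of some of these enzymes can be split among near-identical copies elsewhere in the genome. Gm5506 aligned to Eno1 over 1648 bases at 99.5% identity and was listed at 217 and 222 RPKM in Nrdc-/-WT iMEF, 855 and 823 RPKM in Nrdc-/- iMEF and 676 and 585 RPKM in Nrdc+/+ iMEF. The copy was thus low in Nrdc-/-WT iMEF as Eno1 was. With the reads of the copy added, Eno1 changed by -1.86 log2 units in Nrdc-/-WT against Nrdc-/- iMEF (adjusted p = 2.04e-06) and by -1.78 against Nrdc+/+ iMEF (adjusted p = 8.48e-07). Gapdh has 26 such copies, and 48.7% to 55.6% of the summed reads per library stood on Gapdh itself. With them added, Gapdh rose by 0.92 log2 units in Nrdc-/- against Nrdc+/+ iMEF (adjusted p = 2.42e-05). Pgam1 and Gpi1 have 1 copy each, and adding its reads changed no call of these 4 genes. This setting was chosen after the data were seen.

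The subunit genes of lactate dehydrogenase differed in the line in which they were highest. Ldha (chr7:54096845-54110997 on mm9), whose product favours lactate formation, was 291 and 307 RPKM in Nrdc-/-WT iMEF, 488 and 528 RPKM in Nrdc-/- iMEF and 209.99 and 221 RPKM in Nrdc+/+ iMEF. Ldhb (chr6:142438769-142456477), whose product is known from tissues that oxidise lactate, such as heart, was 164 and 153 RPKM in Nrdc-/-WT iMEF, 46.9 and 44.2 RPKM in Nrdc-/- iMEF and 11.98 and 11.2 RPKM in Nrdc+/+ iMEF. Ldha peaked in Nrdc-/- iMEF and Ldhb in Nrdc-/-WT iMEF, with no overlap between lines for either gene. In Nrdc-/- against Nrdc+/+ iMEF both rose, Ldha with a log2 fold change of 1.24 ± 0.07 (adjusted p = 1.16e-06) and Ldhb with 1.95 ± 0.07 (adjusted p = 6.56e-08). When Nrdc-/-WT iMEF were set against Nrdc-/- iMEF, Ldha fell (-0.77 ± 0.07, adjusted p = 4.65e-05) while Ldhb rose (1.79 ± 0.07, adjusted p = 5.05e-07). In Nrdc-/-WT against Nrdc+/+ iMEF, Ldhb was higher by 3.75 ± 0.07 (adjusted p = 4.12e-09), a 13.7-fold ratio of the means, and Ldha by 0.47 ± 0.07 (adjusted p = 0.000399). The last value of Ldha was under the fold of 1.3 after quantile normalization (0.35, adjusted p = 0.00185).

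The isozyme make-up of several steps therefore differed between lines. Ldhb made up 36.1% and 33.3% of the summed lactate dehydrogenase RPKM in Nrdc-/-WT iMEF, 8.75% and 7.72% in Nrdc-/- iMEF and 5.40% and 4.81% in Nrdc+/+ iMEF. Among the phosphofructokinases, Pfkm took 53.6% and 52.2% in Nrdc-/-WT iMEF, 35.1% and 33.9% in Nrdc-/- iMEF and 34.6% and 33.8% in Nrdc+/+ iMEF. Pfkl took 37.1% and 37.8% in Nrdc-/-WT iMEF, 46.8% and 49.2% in Nrdc-/- iMEF and 60.3% and 60.3% in Nrdc+/+ iMEF. By RPKM, the leading subunit gene was thus Pfkm in Nrdc-/-WT iMEF and Pfkl in the other lines. This order rests on the gene lengths used, 4395 bases for Pfkl and 3051 bases for Pfkm. In unscaled reads of Nrdc-/-WT iMEF, Pfkl (2069 and 1936) and Pfkm (2075 and 1854) were near equal. Hk1 took 60.2% and 61.1% of the hexokinase RPKM in Nrdc-/-WT iMEF, 47.9% and 47.6% in Nrdc-/- iMEF and 56.2% and 50.8% in Nrdc+/+ iMEF. Eno1 held between 87.5% and 97.2% of the enolase RPKM in every library, so that Eno3, even in Nrdc+/+ iMEF, made up 11.9% and 8.41%. Pdk4 made up 16.0% and 17.3% of the pyruvate dehydrogenase kinase RPKM in Nrdc-/-WT iMEF, 0.77% and 0.453% in Nrdc-/- iMEF and 2.65% and 1.55% in Nrdc+/+ iMEF. These shares were not tested.

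**Figure D3:**
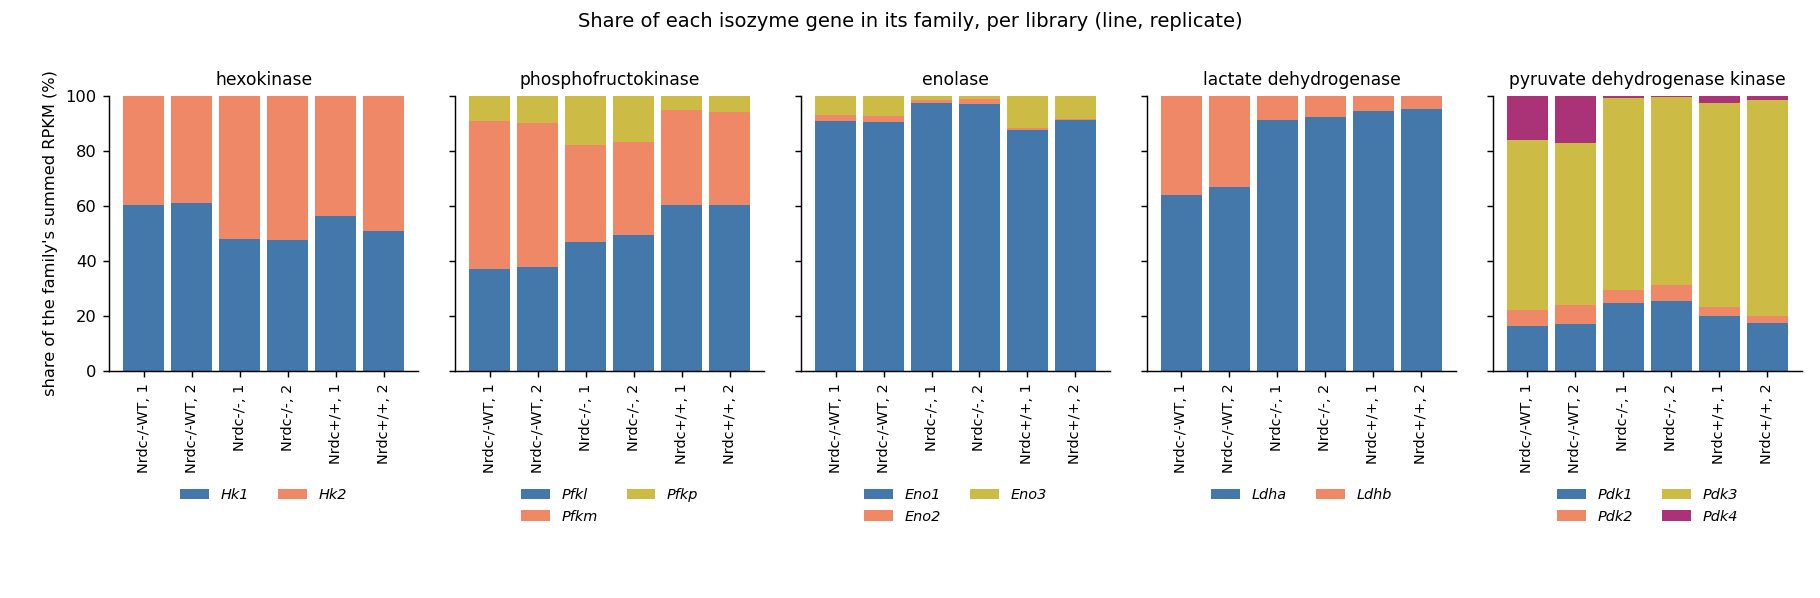
Share of each isozyme gene (% of the family's summed RPKM, y axis) in 5 enzyme families, with 1 bar per library in the order Nrdc-/-WT, Nrdc-/- and Nrdc+/+ iMEF. The Ldhb part of the bars is 33.3% and 36.1% in Nrdc-/-WT iMEF and at most 8.75% in the other lines, and Pdk4 is visible mainly in Nrdc-/-WT iMEF.

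The pyruvate dehydrogenase kinases switch off the enzyme that feeds pyruvate to the mitochondria. Pdk4 (chr6:5433351-5446309 on mm9), known as the isozyme of fasting and fatty acid use, was 9.13 and 9.17 RPKM in Nrdc-/-WT iMEF, 0.461 and 0.267 RPKM in Nrdc-/- iMEF and 0.923 and 0.607 RPKM in Nrdc+/+ iMEF. Pdk1, a known HIF target, was 9.32 and 8.94 RPKM in Nrdc-/-WT iMEF, 14.7 and 15.0 RPKM in Nrdc-/- iMEF and 6.95 and 6.88 RPKM in Nrdc+/+ iMEF. Pdk3 was the most abundant kinase gene, at 35.3 and 31.2 RPKM in Nrdc-/-WT iMEF, 41.8 and 40.3 RPKM in Nrdc-/- iMEF and 25.8 and 30.8 RPKM in Nrdc+/+ iMEF. Pdk4 was thus high in Nrdc-/-WT iMEF alone, whereas Pdk1 and Pdk3 were highest in Nrdc-/- iMEF. Pdk4 rose by 3.95 ± 0.20 log2 units in Nrdc-/-WT against Nrdc-/- iMEF (adjusted p = 2.12e-06) and was higher by 3.23 ± 0.20 than in Nrdc+/+ iMEF (adjusted p = 2.22e-06). Pdk1 rose by 1.07 ± 0.07 in Nrdc-/- against Nrdc+/+ iMEF (adjusted p = 3.07e-06) and fell by 0.68 ± 0.07 in Nrdc-/-WT against Nrdc-/- iMEF (adjusted p = 9.68e-05). Pdk2 was low, at 0.965 to 3.76 RPKM over the libraries, and was higher by 1.42 ± 0.13 in Nrdc-/- (adjusted p = 1.86e-05) and by 1.58 ± 0.13 in Nrdc-/-WT iMEF (adjusted p = 1.07e-05) than in Nrdc+/+ iMEF.

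Lactate leaves the cell through Slc16a1 (MCT1) and Slc16a3 (MCT4). Slc16a1 was 21.4 and 20.5 RPKM in Nrdc-/-WT iMEF, 38.5 and 39.2 RPKM in Nrdc-/- iMEF and 28.9 and 34.6 RPKM in Nrdc+/+ iMEF. It was lowest in Nrdc-/-WT iMEF, with a log2 fold change of -0.89 ± 0.09 against Nrdc-/- iMEF (adjusted p = 6.73e-05) and of -0.59 ± 0.09 against Nrdc+/+ iMEF (adjusted p = 0.000369). Slc16a3, the transporter of strongly glycolytic cells, was not tested. Its levels were 0.6 to 0.655 RPKM in Nrdc-/-WT iMEF, 0.259 to 0.315 RPKM in Nrdc-/- iMEF and 0.0637 to 0.0646 RPKM in Nrdc+/+ iMEF, and it shares 831 exon bases with Csnk1d on the opposite strand. Csnk1d had the same order of lines, at 50.2 and 49.1 RPKM in Nrdc-/-WT iMEF, 39.0 and 40.2 RPKM in Nrdc-/- iMEF and 30.3 and 28.0 RPKM in Nrdc+/+ iMEF. What part its reads had in the values of Slc16a3 was not tested.

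Oxygen sensing rests on Hif1a, whose protein is controlled mainly by its stability, and on the Egln prolyl hydroxylases that mark it for degradation. Hif1a (chr12:75002362-75048517 on mm9) was 52.3 and 51.2 RPKM in Nrdc-/-WT iMEF, 114 and 104 RPKM in Nrdc-/- iMEF and 49.2 and 53.6 RPKM in Nrdc+/+ iMEF. Its mRNA was thus high in Nrdc-/- iMEF alone, and the other lines overlapped. Hif1a rose by 1.08 ± 0.07 log2 units in Nrdc-/- against Nrdc+/+ iMEF (adjusted p = 2.13e-06) and fell by 1.07 ± 0.07 in Nrdc-/-WT against Nrdc-/- iMEF (adjusted p = 6.75e-06). The value between Nrdc-/-WT and Nrdc+/+ iMEF was 0.01 ± 0.07 (adjusted p = 0.886). Egln1, the main sensor, was 17.6 and 16.6 RPKM in Nrdc-/-WT iMEF, 28.4 and 29.2 RPKM in Nrdc-/- iMEF and 29.8 and 29.2 RPKM in Nrdc+/+ iMEF. It fell in Nrdc-/-WT iMEF, by 0.74 ± 0.06 against Nrdc-/- iMEF (adjusted p = 2.61e-05) and by 0.78 ± 0.06 against Nrdc+/+ iMEF (adjusted p = 8.87e-06). Egln3, which HIF is known to induce, had 0 reads in both Nrdc-/-WT libraries, 3 reads in all in Nrdc-/- iMEF and 258 reads in Nrdc+/+ iMEF. Its mean was 2.37 RPKM in Nrdc+/+ iMEF, at least 83.9-fold higher than a floor of 3 reads over the Nrdc-/-WT libraries. Against Nrdc-/- iMEF it was 74.3-fold higher in Nrdc+/+ iMEF (95% interval of 25.1 to 363, exact binomial). Its calls in both comparisons with Nrdc+/+ iMEF carry no further weight, since it passed the filter on low values only through that line.

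The tested hypoxia-response genes shared their direction in the comparisons that involve Nrdc-/- iMEF. All 6 that could be tested rose in Nrdc-/- against Nrdc+/+ iMEF (median log2 fold change of 1.23), beside 32.0% of all tested genes. All 6 fell in Nrdc-/-WT against Nrdc-/- iMEF (median of -0.85), beside 22.7% of all tested genes. Car9 is among the 6 only through its level in Nrdc-/- iMEF. Adm did not pass the filter and was lower in Nrdc-/- iMEF, with 0 reads against 19 in Nrdc+/+ iMEF. Set against Nrdc+/+ iMEF, Nrdc-/-WT iMEF had 3 of the 6 tested genes higher and 0 lower, beside 29.9% and 30.6% of all tested genes. Car9 (chr4:43519838-43526601 on mm9) was 0.57 and 0.791 RPKM in Nrdc-/-WT iMEF, 13.3 and 13.1 RPKM in Nrdc-/- iMEF and 0.0639 and 0.021 RPKM in Nrdc+/+ iMEF. From the reads, of which Nrdc+/+ iMEF had only 4, Car9 was 312-fold higher in Nrdc-/- iMEF (95% interval of 122 to 1148) and 15.9-fold higher in Nrdc-/-WT iMEF (5.91 to 60.2) than in Nrdc+/+ iMEF. On the log2(RPKM + 0.25) scale of the test, which understates changes of low genes, Car9 changed by 5.53 ± 0.16 in Nrdc-/- against Nrdc+/+ iMEF (adjusted p = 2.68e-08). It changed by -3.87 ± 0.16 in Nrdc-/-WT against Nrdc-/- iMEF (adjusted p = 8.10e-07) and by 1.66 ± 0.16 in Nrdc-/-WT against Nrdc+/+ iMEF (adjusted p = 2.81e-05). Its calls in both comparisons with Nrdc-/- iMEF carry no further weight, since it passed the filter on low values only through that line. The other lines averaged 0.36 RPKM for Car9, under the 0.5 RPKM of the filter. Bnip3 (chr7:146082519-146101202) was 35.0 and 33.9 RPKM in Nrdc-/-WT iMEF, 76.7 and 72.4 RPKM in Nrdc-/- iMEF and 12.5 and 13.96 RPKM in Nrdc+/+ iMEF. Both genes had the same order of lines, with Nrdc-/-WT iMEF between the others and no overlap. Bnip3 changed by 2.47 ± 0.07 in Nrdc-/- against Nrdc+/+ iMEF (adjusted p = 2.70e-08), by -1.11 ± 0.07 in Nrdc-/-WT against Nrdc-/- iMEF (adjusted p = 7.35e-06) and by 1.37 ± 0.07 in Nrdc-/-WT against Nrdc+/+ iMEF (adjusted p = 8.74e-07).

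The role also holds Vegfa, P4ha1, P4ha2, Ndrg1 and Adm. Vegfa, the angiogenic growth factor, was 43.4 and 46.1 RPKM in Nrdc-/-WT iMEF, 77.5 and 78.1 RPKM in Nrdc-/- iMEF and 42.5 and 46.1 RPKM in Nrdc+/+ iMEF. P4ha1, a catalytic subunit of the collagen prolyl hydroxylase, was 52.5 and 52.5 RPKM in Nrdc-/-WT iMEF, 77.0 and 72.7 RPKM in Nrdc-/- iMEF and 43.2 and 38.9 RPKM in Nrdc+/+ iMEF. Its paralogue P4ha2 was 17.2 and 17.7 RPKM in Nrdc-/-WT iMEF, 32.1 and 31.3 RPKM in Nrdc-/- iMEF and 11.3 and 9.38 RPKM in Nrdc+/+ iMEF. Nrdc-/- libraries were the highest for all 3 genes, and the other lines overlapped for Vegfa. Ndrg1, a stress-responsive gene, was 33.2 and 35.7 RPKM in Nrdc-/-WT iMEF, 61.6 and 62.9 RPKM in Nrdc-/- iMEF and 40.5 and 48.2 RPKM in Nrdc+/+ iMEF. Its call in Nrdc-/- against Nrdc+/+ iMEF (0.49 ± 0.09, adjusted p = 0.000961) was lost without Nrdc+/+ replicate 1 (0.37, under the fold of 1.3). Adm was not tested, with 1 read in all in Nrdc-/-WT iMEF, 0 reads in both Nrdc-/- libraries and 19 reads in Nrdc+/+ iMEF. Its level in Nrdc+/+ iMEF was 18.5-fold that of Nrdc-/-WT iMEF (95% interval of 2.94 to 769.5, exact binomial) and at least 5.49-fold higher than a floor of 3 reads over the Nrdc-/- libraries. Egln3 and Adm, both known as genes that HIF induces, were thus highest in Nrdc+/+ iMEF, the line with the lowest Car9 and Bnip3.

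**Figure D4:**
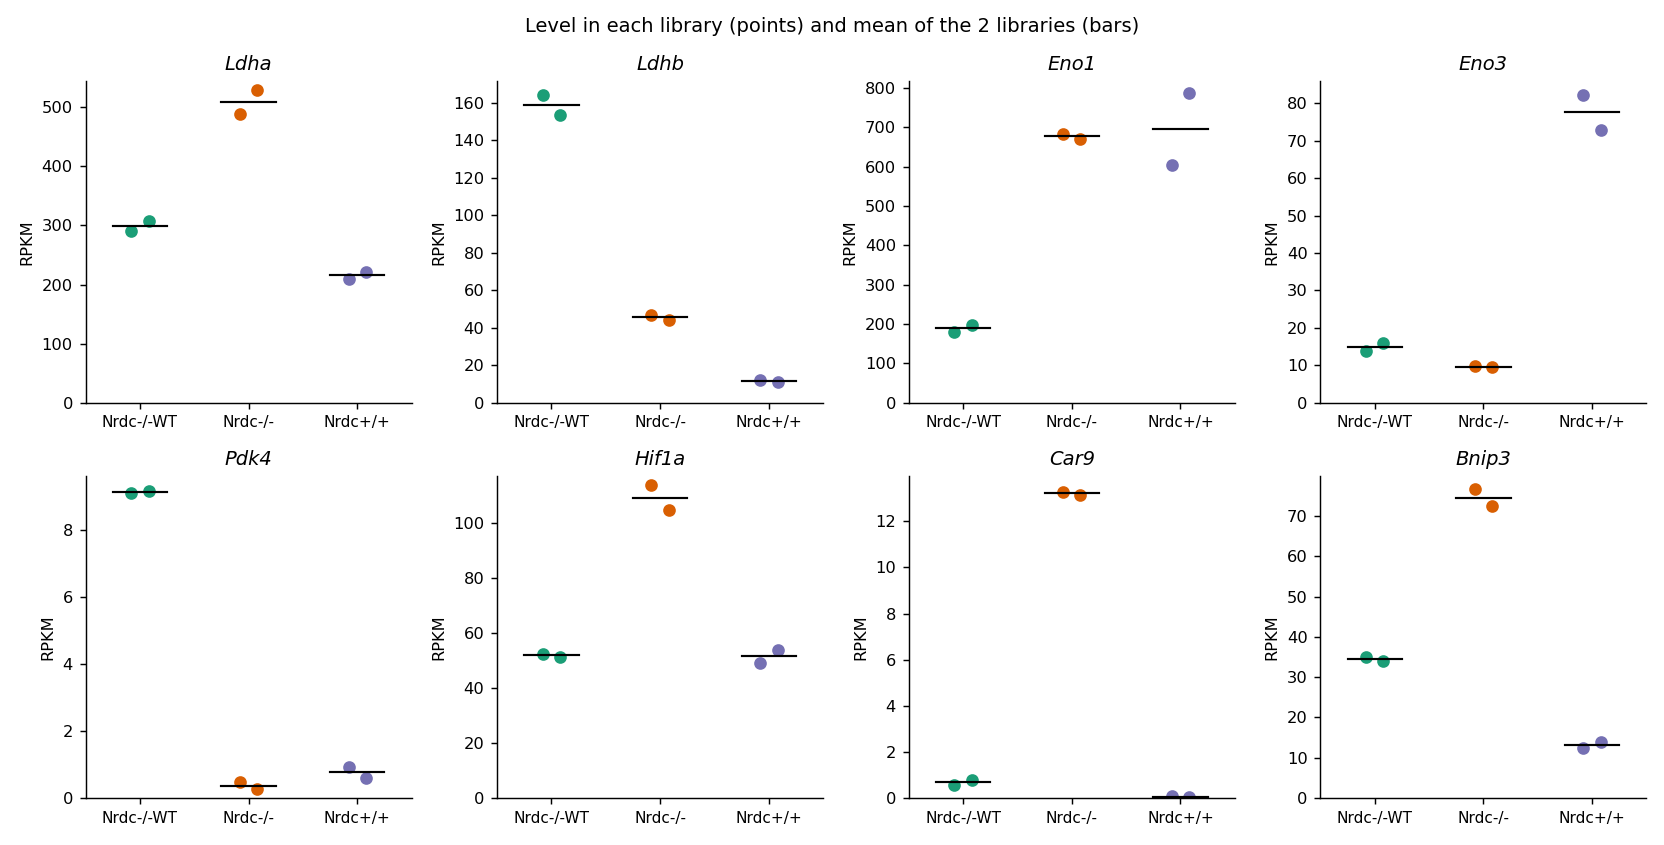
RPKM (y axis) of 8 genes in each library (points) with the mean of the 2 libraries (black bars), for Nrdc-/-WT, Nrdc-/- and Nrdc+/+ iMEF. Ldha, Hif1a, Car9 and Bnip3 peak in Nrdc-/- iMEF, Ldhb and Pdk4 in Nrdc-/-WT iMEF and Eno3 in Nrdc+/+ iMEF, while Eno1 is low in Nrdc-/-WT iMEF, at 181 and 199 RPKM.

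Genes of related function outside the list were counted in the same way, from lists also chosen with earlier results of these data known. Over all tested genes, 32.0% rose and 30.2% fell in Nrdc-/- against Nrdc+/+ iMEF. In Nrdc-/-WT against Nrdc-/- iMEF, 20.5% rose and 22.7% fell. Of 29 other hypoxia-response genes tested, 19 rose and 8 fell in Nrdc-/- against Nrdc+/+ iMEF (median log2 fold change of 0.67), and 6 rose and 14 fell in Nrdc-/-WT against Nrdc-/- iMEF (median of -0.33). Tfrc, the transferrin receptor, fell by 2.55 ± 0.06 log2 units in Nrdc-/- against Nrdc+/+ iMEF (adjusted p = 9.09e-09). Ero1l, the oxidase of the endoplasmic reticulum, fell by 2.24 ± 0.07 in Nrdc-/-WT against Nrdc-/- iMEF (adjusted p = 2.56e-07), with 22.4 and 22.6 RPKM in Nrdc-/-WT iMEF against 109.8 and 105 RPKM in Nrdc-/- iMEF. Of 12 other components of the HIF pathway, 4 rose and 2 fell in Nrdc-/- against Nrdc+/+ iMEF, with Vhl, the ligase subunit that recognises hydroxylated HIF, higher by 1.09 ± 0.08 (adjusted p = 5.04e-06). In the Nrdc-/-WT against Nrdc-/- comparison 2 of the 12 rose and 1 fell. The median of the 12 genes was -0.11 in the first of these comparisons and 0.11 in the second.

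The routes that glucose carbon takes beside and after glycolysis were set against the same shares of all tested genes. Among 11 genes of pyruvate entry and the dehydrogenase complex, 7 rose and 1 fell in Nrdc-/- against Nrdc+/+ iMEF (median of 0.59), and 1 rose and 6 fell in Nrdc-/-WT against Nrdc-/- iMEF (median of -0.44). They include Brp44l, the mitochondrial pyruvate carrier, at 17.8 and 17.0 RPKM in Nrdc-/-WT iMEF, 32.7 and 29.9 RPKM in Nrdc-/- iMEF and 7.77 and 9.22 RPKM in Nrdc+/+ iMEF. Pdp1, the phosphatase that opposes the Pdk kinases, was 22.9 and 20.2 RPKM in Nrdc-/-WT iMEF, 7.78 and 8.34 RPKM in Nrdc-/- iMEF and 1.87 and 2.32 RPKM in Nrdc+/+ iMEF. Pdp1 thus had the same order of lines as Ldhb, with a log2 fold change of 3.22 ± 0.11 in Nrdc-/-WT against Nrdc+/+ iMEF (adjusted p = 1.05e-07). Of 10 pentose phosphate genes, 4 rose and 1 fell in Nrdc-/- against Nrdc+/+ iMEF, and 0 rose and 5 fell in Nrdc-/-WT against Nrdc-/- iMEF. For 17 genes of the TCA cycle, 4 rose and 3 fell in Nrdc-/- against Nrdc+/+ iMEF, with a median of 0.02, and 0 rose and 3 fell in Nrdc-/-WT against Nrdc-/- iMEF. Other glycolytic and hexose isozymes were mostly low, with 10 of 26 listed genes tested, of which 3 rose and 1 fell in Nrdc-/- against Nrdc+/+ iMEF. The hexose transporter Slc2a6 was the largest of these rises, at 3.01 and 3.22 RPKM in Nrdc-/-WT iMEF, 12.7 and 13.5 RPKM in Nrdc-/- iMEF and 0.627 and 0.332 RPKM in Nrdc+/+ iMEF.

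Position along the chromosomes moved with some of these differences. In Nrdc-/- against Nrdc+/+ iMEF, the median log2 fold change of all tested genes ranged from -0.43 to 0.35 over 20 chromosomes, and in Nrdc-/-WT against Nrdc+/+ iMEF from -0.57 to 0.34. Chromosome 6 carries 7 of the 40 genes, namely Slc2a3, Hk2, Tpi1, Gapdh, Eno2, Ldhb and Pdk4, and its median was 0.25 in Nrdc-/- against Nrdc+/+ iMEF. Tpi1, Gapdh and Eno2 lie close together, and of 33 other tested genes within 1 Mb of Tpi1, 21 rose and 2 fell in the same comparison, with a median of 0.60. Tpi1 itself exceeded this value, with 1.54, and Gapdh was near it, with 0.78. Ldhb changed by 1.95 beside a median of 0.63 over its 11 neighbours. Car9 stood far from its 26 neighbours, with 5.53 beside a median of -0.33, and Hif1a changed by 1.08 beside -0.45 over 7 neighbours. Slc2a1 rose by 0.46 beside a median of -0.64 over 18 neighbours. Hk2 and Pfkfb1 lay below their neighbours, with 0.31 beside 0.76 and 0.17 beside 1.68. In Nrdc-/-WT against Nrdc-/- iMEF, Pgk1 was level with its neighbours (-0.50 beside -0.51), and so was Egln1 in Nrdc-/-WT against Nrdc+/+ iMEF (-0.78 beside -0.76). The neighbours of Ldhb also rose in Nrdc-/-WT iMEF. Ldhb changed by 1.79 beside 0.74 against Nrdc-/- iMEF and by 3.75 beside 1.14 against Nrdc+/+ iMEF. In the latter comparison Gapdh changed by 0.67 beside 0.76 and Tpi1 by 1.10 beside 0.74. Against Nrdc-/- iMEF, Bnip3 changed by -1.11 beside -0.58 and Ndrg1 by -0.85 beside -0.74 over 3 neighbours. Of the 36 tested members, 30 lay above and 6 below the median of their neighbours in Nrdc-/- against Nrdc+/+ iMEF. In Nrdc-/-WT against Nrdc-/- iMEF 10 lay above and 26 below, and in Nrdc-/-WT against Nrdc+/+ iMEF 25 above and 11 below. These counts have no counterpart for all tested genes, and neighbours can be members themselves, as with Tpi1, Gapdh and Eno2. Without the genes of chromosome 6, 22 of 30 members rose and 2 fell in Nrdc-/- against Nrdc+/+ iMEF (median of 0.60), and 2 rose and 22 fell in Nrdc-/-WT against Nrdc-/- iMEF (median of -0.56). What part a difference between the lines in chromosome content had in these values was not tested.

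**Figure D5:**
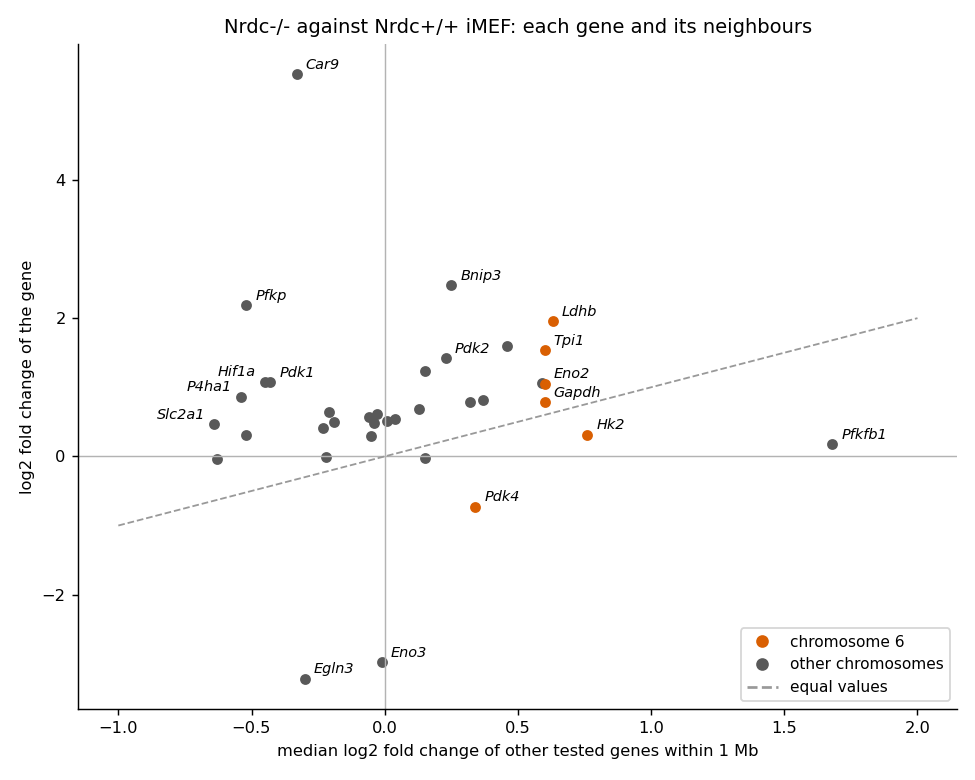
log2 fold change of each of the 36 tested genes in Nrdc-/- against Nrdc+/+ iMEF (y axis) against the median of the other tested genes within 1 Mb (x axis), with the members on chromosome 6 in orange and equal values on the dashed line. Car9, at 5.53 beside -0.33, and Egln3 and Eno3 lie far from the line, and the orange points lie at neighbour medians above 0.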

How the data were processed

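mRNA of 6 libraries was used. The submitters' notes and the methods name STAR, Bowtie2 in local mode, featureCounts and edgeR, with build mm9 and Ensembl protein-coding genes, and state no tool version. Log2 values of RPKM per gene and library were deposited by the authors, with a small constant added before the logarithm, and the strand setting is not stated. The constant was taken off to give RPKM, from which whole reads were recovered. Values under 100 reads fell within 0.05 of a whole read, and larger values were rounded without this check. The plan assumed plain RPKM. Totals ran from 16385565 to 19764315 reads on genes, and read intervals cover counting error only. A filter at a mean of 0.5 RPKM left 11598 genes, tested as log2(RPKM + 0.25) with limma 3.58.1 (R 4.3.3), with a trend and all 6 libraries in 1 fit with 3 residual degrees of freedom. Calls needed a Benjamini-Hochberg adjusted p below 0.05 and a change of 1.3-fold or more. The steps were tested on simulated data.

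The 40 members, the other gene lists and the markers were chosen with earlier results of these data known. Values per library are given for called members with a mean of at least 5 RPKM in some line and statistics for up to 2 members per role and comparison with the largest changes. Other members were named where a sentence compares isozymes or accounts for untested genes. Alternatives were another pseudocount, filters, scalings, voom on the reads, a replicate block, the 2 lines compared alone, other call rules, each library left out in turn and, chosen after the data were seen, the reads of near-identical copies added. Figures were drawn with matplotlib 3.10.9 in Python 3.11.15. ChIP-seq was not used here. A result for 1 gene of the other lists is not reported here.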

Additional observations from a re-analysis of the deposited data

How the results depend on the processing

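No fold change of a tested member whose difference was called changed sign under any alternative run. Apart from the rule of a fold of at least 2, every alternative kept 25 of 29 member calls in Nrdc-/- against Nrdc+/+ iMEF, 26 of 29 in Nrdc-/-WT against Nrdc-/- iMEF and 17 of 20 in Nrdc-/-WT against Nrdc+/+ iMEF. At a fold of at least 2, 2906 genes were called in Nrdc-/- against Nrdc+/+ iMEF, with 12 of the 36 tested members higher and 2 lower. Over all 11598 tested genes, 1626 were higher and 1280 lower at this fold. In Nrdc-/-WT against Nrdc-/- iMEF 1398 genes were called, with 2 members higher and 5 lower, and in Nrdc-/-WT against Nrdc+/+ iMEF 2726 genes, with 8 members higher and 3 lower. With no filter on low values, all 40 members were tested, and 28 were higher and 5 lower in Nrdc-/- against Nrdc+/+ iMEF. Over all 17771 genes tested in that setting, 4110 were higher and 3987 lower. The median log2 fold change of the members was 0.54 in Nrdc-/- against Nrdc+/+ iMEF and -0.46 in Nrdc-/-WT against Nrdc-/- iMEF after quantile normalization, and -0.56 in the second with voom. With each library left out in turn, the median ranged from 0.62 to 0.69 in Nrdc-/- against Nrdc+/+ iMEF, from -0.57 to -0.52 in Nrdc-/-WT against Nrdc-/- iMEF and from 0.11 to 0.16 in Nrdc-/-WT against Nrdc+/+ iMEF. With ACGTG alone as the motif, 44.8% of the members' windows and 16.6% of all windows held a match. The cause of these shifts was not tested. With 2 libraries a line, small changes of genes under 1 RPKM could not be measured closely.

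Replicate numbers showed no strong pairing, as the deviations of same-numbered libraries correlated at 0.01, -0.102 and -0.031 in the 3 pairs of lines. Whether same-numbered libraries shared a culture or a preparation is not stated, and these correlations cannot settle it. With the replicate number as a block, 7218, 5002 and 7022 genes were called in Nrdc-/- against Nrdc+/+, Nrdc-/-WT against Nrdc-/- and Nrdc-/-WT against Nrdc+/+ iMEF, beside 7206, 5008 and 7009 without it. Among members the block ended only the call for Pfkfb1 in Nrdc-/-WT against Nrdc+/+ iMEF (adjusted p = 0.0569 with limma).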
